A study of Mus musculus with 2 samples.

Results

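The genes described here encode the semaphorins and their plexin and neuropilin receptors, the Slits and their Robo receptors, and the netrins with the receptors Dcc and Unc5a to Unc5d. They were chosen by symbol from the protein-coding genes annotated on mm10, and the rule took 47 of 21938 gene entries. Of these, 27 encode ligands (20 semaphorins, 3 Slits and 4 netrins) and 20 encode receptors (9 plexins, 2 neuropilins, 4 Robos and 5 netrin receptors). Chromatin accessibility was measured by DNase-seq, in which DNase I cuts open DNA and the cut sites are sequenced, on midbrain of untreated mouse embryos of strain B6NCrl at 14.5 days, with males and females pooled. The only group had 2 biological replicates, given in the labels as different biosamples that name the same donor. No condition was compared, so the values below describe these 2 libraries, and part of their spread may be technical.

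These families guide growing axons. Semaphorins are repellents or attractants that act through plexins, and most of the secreted class 3 forms also need a neuropilin on the receiving cell. Slits repel axons that carry Robo receptors, while netrin-1 attracts through Dcc and repels through Unc5 proteins. At this age midbrain neurons send axons across and away from the ventral midline, where Slits and netrin-1 are classic cues. Several members also act in blood vessels, among them Robo4, Plxnd1, Sema3g, Nrp1 and Unc5b.

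The authors' peaks are 150 bp intervals, each with a whole-number value up to 150. That value is not shown to be scaled for depth, which is unknown, so it is compared between genes within a replicate only. Replicate 1 held 710176 peaks with a median value of 6, and replicate 2 held 267958 with a median of 51. A peak was called shared when it overlapped one of the other replicate, and a shared promoter peak is a shared peak within 1 kb of any annotated start of the gene. The midbrain markers En1, En2, Pax5, Pax7, Otx2, Lmx1b, Pou4f1 and Barhl1 had shared promoter peaks at 8 of 8, with values of 32 to 111 in replicate 1 and 96 to 141 in replicate 2. The forebrain markers had them at 4 of 4 (21 to 77 and 85 to 137), so a promoter peak alone did not set the regions apart. Shared promoter peaks were found at 3 of 5 endothelial, 4 of 5 meningeal, 1 of 5 myeloid, 1 of 5 erythroid and 2 of 5 hindbrain and cord markers. In bulk tissue, fewer cells of a type and less open chromatin per cell cannot be told apart.

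Nearly all guidance genes were open at a promoter. A shared promoter peak was found at 44 of the 47 (93.6%), where 68.9% of all protein-coding genes had one. Replicate 1 alone had a promoter peak at 45 members (75.8% of all genes) and replicate 2 alone at 45 (72.4%). Peaks in each replicate, overlapping or not, stood at 44 members (69.9% of all genes), and a hotspot of each replicate, a wider region of open chromatin, covered a promoter of 45 (70.1%). At the gene 5' end alone the shared count was 42 (64.4%). Over all annotated starts the count was 26 of 27 for ligands and 18 of 20 for receptors, and all 20 semaphorins were included. The 3 exceptions were Ntn5, Robo4 and Plxnb3. Sema3b was included only through a start of a transcript not classed as protein-coding. With protein-coding starts alone the count was 43 (67.5% of all genes). The peaks themselves were not high for promoters. Over members with a peak, the strongest promoter peak had a median value of 68 in replicate 1 and 127 in replicate 2, against 86 and 136 over all genes with a peak. Each replicate's value is that of its own strongest peak, and in 7 members (Ntn1, Ntn4, Sema3e, Sema4b, Sema4c, Sema5a and Unc5a) the strongest peaks of the replicates did not overlap. Only 8 members in replicate 1 and 12 in replicate 2 stood above those all-gene medians. Both replicates ordered the 44 members with a peak in each alike, with a Spearman coefficient of 0.901 across genes, given as a description because the genes share the same 2 libraries.

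**Figure D1:**
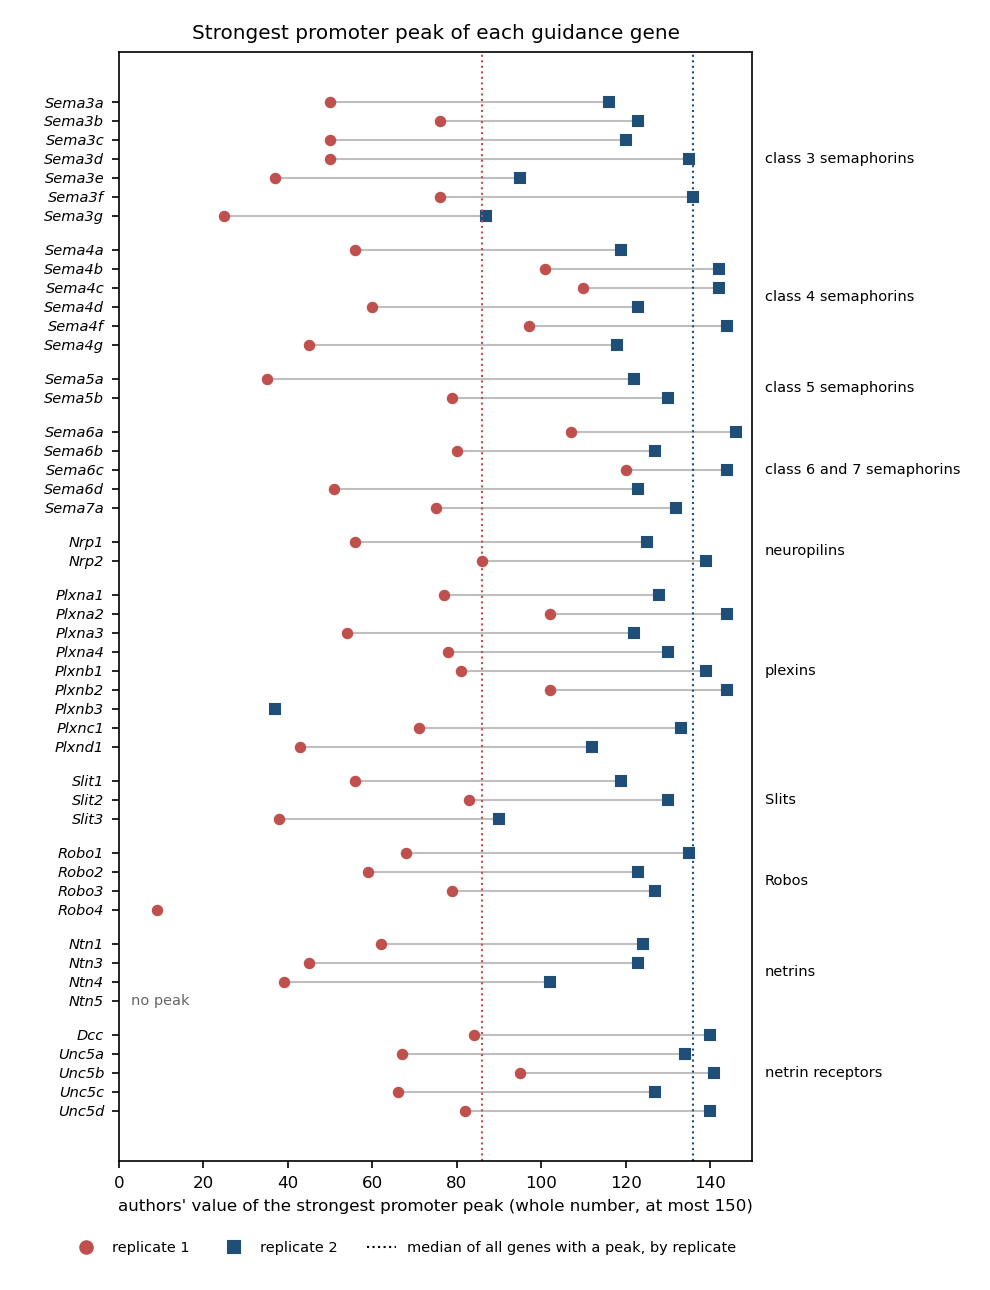
Authors' value of the strongest promoter peak (horizontal axis, no unit, at most 150) of each of the 47 genes in replicate 1 (circles) and replicate 2 (squares), grouped by family, with a dotted line at each replicate's median over all genes with a peak (86 and 136). Most members sit to the left of both lines, and Ntn5, Robo4 and Plxnb3 lack a peak in at least 1 replicate.

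Among the ligands, the semaphorins of classes 6 and 7 had median promoter values of 80 in replicate 1 and 132 in replicate 2, those of class 4 had 78.5 and 132, and the secreted class 3 semaphorins 50 and 120, with overlap between classes. Sema6a, a ligand of plexin-A2 and plexin-A4, had values of 107 in replicate 1 and 146 in replicate 2. Sema6c, of the same class, had 120 and 144, Sema6b had 80 and 127, and Sema6d, a ligand of plexin-A1, had 51 and 123. Sema7a, which is anchored to the membrane by a lipid and binds plexin-C1, had 75 and 132. In class 4, Sema4f (97 and 144), Sema4c (110 and 142), a ligand of plexin-B2, and Sema4b (101 and 142) were highest. For Sema4c the pair joins 2 sites, and the values at the 5' end itself were 83 and 142. Sema4d, the ligand of plexin-B1, was lower at 60 and 123, and Sema4a (56 and 119) and Sema4g (45 and 118) lower still. The class 5 genes, whose proteins carry thrombospondin repeats, had 79 and 130 (Sema5b) and 35 and 122 (Sema5a). The Sema5a pair also joins 2 sites: the 5' end had 35 and 107, and the 122 belongs to a peak 1360 bp into the gene.

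Class 3 values ran from 25 to 76 in replicate 1 and from 87 to 136 in replicate 2. Sema3f, which signals through neuropilin-2, was highest with 76 and 136, followed by Sema3d (50 and 135) and Sema3b (76 and 123). The Sema3b pair lay at a group of starts 7063 bp downstream of the 5' end, none of them of a protein-coding transcript. Where Sema3b has protein-coding starts, the values were 7 and 13 in replicate 1, with no peak in replicate 2. Sema3a, the classic growth cone collapsing factor, had 50 and 116, and Sema3c had 50 and 120. Sema3e, the ligand of plexin-D1, had 37 and 95, and Sema3g, known from vessels, had the lowest pair with 25 and 87. Sema3d, Sema3a, Sema3e and Sema3c lie in this order on chromosome 5, between 12383385 and 17730268. Among these 4 the replicate 1 values were 50, 50, 37 and 50 and those of replicate 2 ran from 95 to 135, with Sema3e lowest in both.

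Of the 11 plexins and neuropilins, 10 had a shared promoter peak. Plxna2 and Plxnb2 both had values of 102 and 144, the highest of the plexins. Nrp2, which receives Sema3f, had 86 and 139, and Nrp1, which receives Sema3a and also VEGF, had 56 and 125. Plxnb1 (81 and 139), Plxna4 (78 and 130), Plxna1 (77 and 128), Plxnc1 (71 and 133) and Plxna3 (54 and 122) came between. Plxnd1, best known from endothelial cells, was lower with 43 and 112. Plxnb3, a Sema5a receptor found in oligodendrocytes, had no promoter peak in replicate 1 and a value of 37 in replicate 2. That peak lay 8420 bp inside the gene near another annotated start, and the nearest shared peak to any Plxnb3 start was 21119 bp away, inside Idh3g.

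Slit2 had the highest promoter values of the Slits (83 and 130), ahead of Slit1 (56 and 119) and Slit3 (38 and 90). Of their receptors, Robo1 had 68 and 135 and Robo2 had 59 and 123. Robo3, the divergent receptor of commissural axons, had 79 and 127. Robo4, the endothelial Robo, had a value of 9 in replicate 1 and no peak in replicate 2. The endothelial markers ranged widely in the same libraries, from Tek (6 in replicate 1 and no peak in replicate 2) and Pecam1 (10 and 35) to Cldn5 (23 and 65) and Kdr (38 and 114), and their part in the Robo4 value was not tested. The nearest shared peak to a Robo4 start (24 and 96) lay 4564 bp away, within the gene.

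All 5 netrin receptors had a shared promoter peak. Unc5b had 95 and 141, Dcc 84 and 140, Unc5d 82 and 140, Unc5a 67 and 134, and Unc5c 66 and 127. Their ligands were lower, with Ntn1 at 62 and 124, Ntn3 at 45 and 123, and Ntn4, a basement membrane protein, at 39 and 102. The netrins with a promoter peak reached 62 and 124 and the receptors began at 66 and 127, so these few genes did not overlap in either replicate. The margins were narrow, the Ntn1 pair joins 2 sites, and no share over all genes is given for this. Ntn5 had no promoter peak in either replicate, but this depended on the window. A shared peak of 77 and 126 was centred 1111 bp before its start, just outside the 1 kb limit and inside the neighbouring gene Sec1. With that peak counted, netrins and receptors would overlap in replicate 1, where Unc5a had 67 and Unc5c 66.

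The 3 genes without a shared promoter peak were also poor in CpG, and the part of CpG content in their lack of a peak was not tested. Within 1000 bp about the gene 5' end, Plxnb3 had 8 CpG dinucleotides, Robo4 11 and Ntn5 15, against a median of 57 over the members and 41 over all genes. All 38 members with 20 or more CpG had a shared promoter peak, where 92.5% of all such genes did. Of the 9 members with fewer than 20, 6 had one, where 24.9% of all such genes did. The strongest peak lay at another annotated start in Robo1, Sema3a, Sema3b, Sema4a and Plxna2. In Plxna2, with 4 CpG at its 5' end, it lay 1612 bp into the gene over the start at 194619825, where 68 CpG were counted. Sema3g was the only 1 of the 6 with its strongest peak at the 5' end itself, and that peak also lay within 1 kb of a start of the neighbouring gene Nisch.

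The sequences before the start show this contrast. They end at the base before the GENCODE 5' end, were taken from the RefSeq promoter table (GRCm38.p6), and have each CpG in capitals, with all other bases in lower case. Robo4 and Ntn5 lacked a shared promoter peak, Sema3g is CpG-poor with one, and Unc5b is CpG-rich with one.
Robo4, no shared peak, chr9:37401722-37401896, plus strand: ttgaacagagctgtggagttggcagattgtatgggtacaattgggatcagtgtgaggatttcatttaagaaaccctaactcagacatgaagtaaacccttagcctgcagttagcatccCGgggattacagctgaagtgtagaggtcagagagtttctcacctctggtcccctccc
Ntn5, no shared peak, chr7:45683772-45684021, plus strand: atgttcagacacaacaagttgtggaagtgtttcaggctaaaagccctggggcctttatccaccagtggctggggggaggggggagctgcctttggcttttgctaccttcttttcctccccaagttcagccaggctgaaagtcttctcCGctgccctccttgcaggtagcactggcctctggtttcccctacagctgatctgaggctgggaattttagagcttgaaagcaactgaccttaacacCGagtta
Sema3g, shared peak, chr14:31217623-31217859, plus strand: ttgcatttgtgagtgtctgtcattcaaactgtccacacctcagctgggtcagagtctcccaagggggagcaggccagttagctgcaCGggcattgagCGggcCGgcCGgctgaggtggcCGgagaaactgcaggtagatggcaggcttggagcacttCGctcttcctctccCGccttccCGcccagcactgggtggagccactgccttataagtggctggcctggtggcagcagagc
Unc5b, shared peak, chr10:60831582-60831831, minus strand: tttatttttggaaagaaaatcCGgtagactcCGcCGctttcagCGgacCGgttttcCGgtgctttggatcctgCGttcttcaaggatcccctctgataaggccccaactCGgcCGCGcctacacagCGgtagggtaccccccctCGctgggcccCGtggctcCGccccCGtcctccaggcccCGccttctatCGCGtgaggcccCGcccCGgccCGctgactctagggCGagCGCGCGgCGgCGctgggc
The printed Robo4 stretch of 175 bases holds 1 CpG and the Ntn5 stretch of 250 bases holds 2, whereas the 237 bases of Sema3g hold 8 and the 250 bases of Unc5b hold 27.

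**Figure D2:**
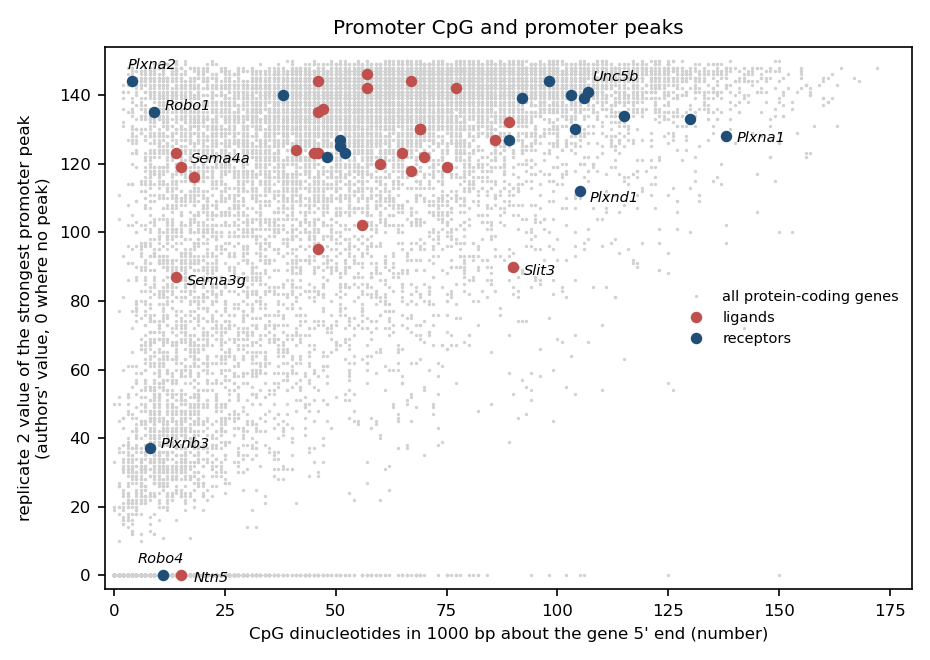
Number of CpG dinucleotides in 1000 bp about the gene 5' end (horizontal axis) and the authors' replicate 2 value of the strongest promoter peak (vertical axis, 0 where there was none) for ligands, receptors and, in grey, all protein-coding genes. The members without a shared peak, Robo4, Ntn5 and Plxnb3, lie at the lower left with 8 to 15 CpG, while Plxna2 and Robo1 reach 144 and 135 through peaks away from the 5' end.

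Many guidance genes were open at more than 1 start. Annotated starts were joined into groups whose 1 kb windows do not touch, and 38 of the 47 genes had 2 or more groups. Shared peaks stood at 2 or more groups in 18 members, where 13.5% of all genes had this. Among genes with 2 or more groups the shares were 47.4% for the members and 26.4% for all. Counting only groups that hold the start of a protein-coding transcript, 12 members (25.5%) qualified against 7.28% of all genes. They were Ntn1, Plxnb1, Plxnb2, Plxnd1, Robo1, Robo2, Robo3, Sema4a, Sema4b, Sema6a, Sema6b and Sema6d. Some qualified through weak peaks. The internal group of Robo2 had 12 and 29 and the 5' group of Robo1 had 6 and 40, both below the replicate 2 median peak value of 51. The members are longer than other genes, as given below, and the part of length in these counts was not tested.

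In some genes an internal start carried the stronger peak. At the Robo1 5' end, 72308306 on chromosome 16, the values were 6 and 40. At the start group 354843 bp further on, they were 68 and 135. Sema3a showed the same order, with 17 and 59 at its 5' end (13125414 on chromosome 5, where no start is of a protein-coding transcript) and 50 and 116 at the group that begins 271370 bp downstream, which holds 5 of its protein-coding starts. In Sema6d the 5' end had 28 and 92 and the group 520137 bp downstream had 51 and 123. Robo3, a shorter gene of 17.6 kb, had 18 and 94 near its 5' end and 79 and 127 at a start 3112 bp downstream. In both replicates the internal value was the higher one in each of these 4 genes. Slit3 also had its strongest peak far inside, 423461 bp from the 5' end (38 and 90 against 17 and 79), but the only start there belongs to a transcript not classed as protein-coding.

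Other genes were open to a like degree at both starts. Ntn1 had 62 and 119 about 1 kb inside its 5' end and 60 and 124 at a group 13811 bp downstream, so the replicates disagreed on which was stronger. Sema4b likewise had 101 and 137 at the 5' end and 89 and 142 at the group 11600 bp downstream. In Sema6a the 5' end was the stronger by far, with 107 and 146 against 49 and 100 at a group 35522 bp downstream. In Sema4a the 5' end had no peak in replicate 1 and 46 in replicate 2, while the group 2081 bp downstream had 56 and 119. In Dcc, Unc5d, Nrp1 and Nrp2 all starts fell into 1 group.

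The guidance genes also had many distal peaks. Distal peaks are shared peaks whose centre is over 1 kb from every protein-coding start, and each gene was given those in its body or within 50 kb of it. At least 1 was found for 46 members, where 88.7% of all genes had one. Starts of transcripts not classed as protein-coding do not count here, and peak centres just past 1 kb can still touch a promoter window. Some peaks given above are therefore also counted as distal, among them those of Ntn1 (62 and 119), Sema3b (76 and 123), Slit3 (38 and 90), Robo3 (18 and 94) and Sema5a (122). The median over members was 19, with a range from 0 to 78, against a median of 7 over all genes. Counts of 20 or more were reached by 22 of the 47, where 9.6% of all genes reached them, and 41 stood above the all-gene median. With peaks over 1 kb from any annotated start alone, the median was 18 for the members and 6 for all genes. The members are long genes, with a median of 107 kb against 17.4 kb, and long windows hold more peaks. Per 100 kb of window the median was 9.11 for the members and 5.02 for all genes. Split by length, the medians were 11 against 6 below 50 kb (21 members), 31 against 11 from 50 to 200 kb (13 members) and 33 against 28 above 200 kb (13 members). Per 100 kb of window, the medians in this order were 9.11 against 4.81, 12.4 against 5.66 and 5.85 against 6.07. Above 200 kb the members were therefore not denser in distal peaks, and they were longer, with a median of 477 kb against 327 kb.

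Slit3 had the most, with 78, followed by Robo1 with 76, Dcc with 70, Plxna4 with 54, Unc5d with 52 and Robo2 with 46. Slit1 and Nrp2 had 44 each, Plxna2 had 37 and Sema6a 36. These 10 include receptors of each of the 3 systems. At the other end, Plxna3 had 0, and Sema6c and Plxnb3 had 4 each. Plxna3 was open at its promoter all the same, and in the separate lists it had 9 distal peaks in replicate 1 and 2 in replicate 2. Sema6c combined the highest replicate 1 promoter value of the 47 genes with nearly the fewest distal peaks.

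Density in the gene body gave another order than number. Ntn3, a gene of 5.68 kb, had 35.2 distal peaks per 100 kb of gene, from 2 peaks that both lay nearest to the start of Tbc1d24. Sema3f had 27.6, Slit1 25.1, Nrp2 24.3, Plxnb2 23.8 and Sema6a 22.5. Some much longer genes had fewer, with 6.2 in Dcc, 6.15 in Robo2, 4.87 in Unc5c, 4.82 in Sema3a and 3.54 in Sema5a. Other genes over 200 kb had more, with 12.6 in Slit3, 10.8 in Plxna4 and 10 in Robo1. The short genes Sema4c, Ntn5, Plxna3 and Plxnb3 had 0. Paralogues differed widely. Slit1 had 25.1 per 100 kb, Slit3 12.6 and Slit2 8.32, and Nrp2 had 24.3 against 6.22 in Nrp1. Among the Unc5 genes the density ran from 4.87 in Unc5c to 14.5 in Unc5b. Across the 47 genes the Spearman coefficient of distal peak number with gene length was 0.774, and with promoter rank it was 0.194, both given as descriptions.

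**Figure D3:**
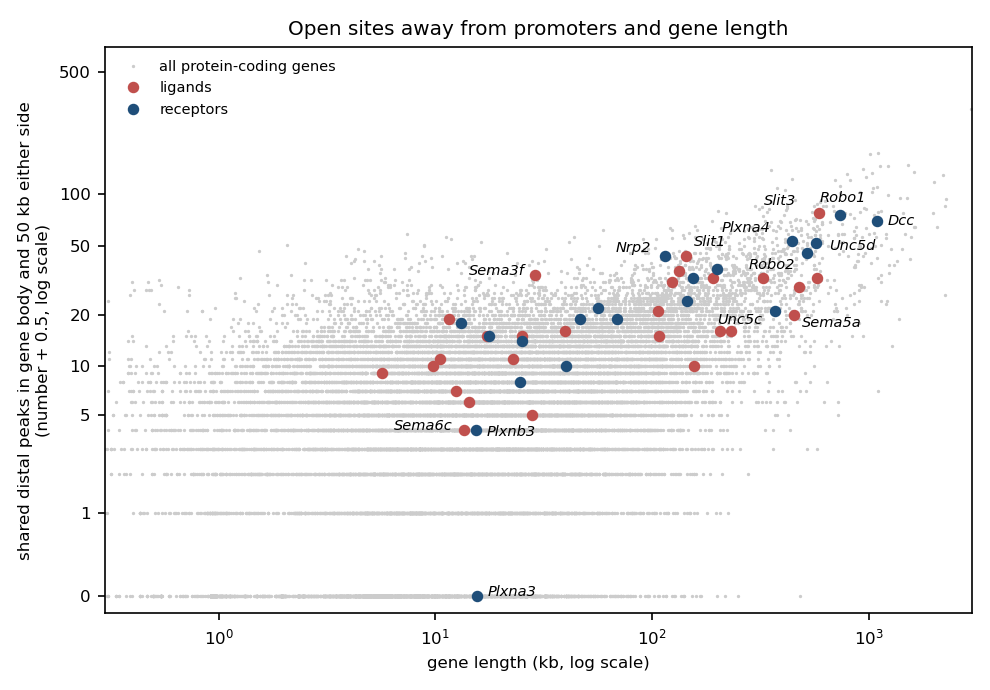
Gene length in kb (horizontal axis, log scale) and the number of shared distal peaks inside or within 50 kb of the gene (vertical axis, number plus 0.5 on a log scale) for ligands, receptors and, in grey, all protein-coding genes. Slit3, Robo1 and Dcc stand highest among the members with 70 to 78 peaks, and Plxna3 lies at 0.

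Within the 13 members over 200 kb, 488 distal peaks lay in gene bodies, 238 in the 5' part up to the midpoint and 250 beyond it. Individual genes were uneven. Slit3 had 23 before the midpoint and 51 after it, and Sema3d had 2 and 11, whereas Slit2 had 21 and 6. Robo1 had 28 and 46, with its stronger internal start near the midpoint. Dcc had 40 and 28, of which 11 lay in the first 20 kb of the gene, and the Robo1 stretch of that size held 0. Unc5d was even, with 24 on each side. The widest stretch of gene body without a distal peak, 112 kb, was in Sema3a.

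**Figure D4:**
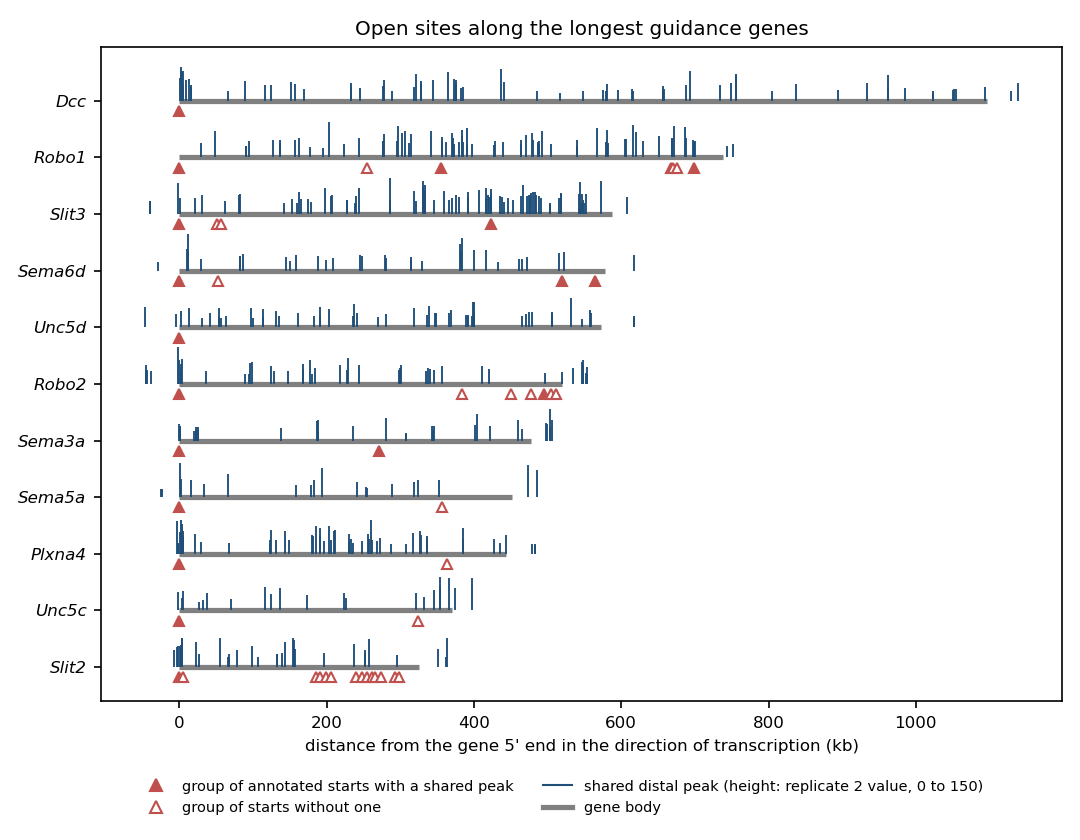
Shared distal peaks (vertical lines, height in proportion to the authors' replicate 2 value) along 11 of the longest guidance genes, placed by distance in kb from the gene 5' end, with groups of annotated starts as triangles, filled where a shared peak lay within 1 kb. In Slit3 51 of 74 gene-body peaks lie beyond the midpoint, and filled triangles mark the internal starts of Robo1, Sema6d and Sema3a.

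Together the members had 1139 distinct distal peaks out of 140428 in the genome, and 1059 of their own lay over 1 kb from any annotated start. Of the 1139, 24 lay in the windows of 2 members, because Robo3 and Robo4 are neighbours on chromosome 9, as are Sema3b and Sema3f. The gene body held 787 of the 1139, the upstream flank 183 and the downstream flank 169. For 843 (74%) the closest 5' end of a protein-coding gene was that of a member, and the remainder lay nearer to another gene. In other respects the peaks were like other distal peaks. Their median values were 19 and 65 against 18 and 60 for all distal peaks, their median GC content was 50% against 49.3%, and the share without a CpG was 12.1% against 13.7%. Introns held 71.9% of them against 42%, and coding exons 2.72% against 1.94%. The member windows were drawn around genes, whereas the set of all distal peaks was not.

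Short sequence motifs were counted as exact matches on both strands in the 150 bp about each peak centre. The E-box CAGCTG, a binding motif of proneural bHLH factors, was in 15.9% of member peaks, 15.2% of all distal peaks and 6.94% of windows 1000 bp to either side of the member peaks. The E-box CAGATG was in 14.2%, 15.4% and 12.3%. The NFI motif TTGGCA was in 12.6%, 13.1% and 7.68%, the OTX motif TAATCC in 8.87%, 6.87% and 4.87%, and the homeodomain motif TAATTA in 6.76%, 5.75% and 5.31%. The CTCF core motif was in 1.76%, 1.81% and 0.132%, and the EBF motif in 2.02%, 1.23% and 0.483%. The SOX motif AACAAT was rarer in the peaks (6.06%, 7.21% for all) than beside them (8.91%). Of 20 motifs searched, some share letters, as with the full NFI motif and its part. A match describes letters only.

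The strongest distal peaks included CpG-rich and CpG-poor sites. Ranked by mean percentile over both replicates, the top 10 lay by Ntn5, Sema6a, Unc5a, Sema7a, Sema3b, Plxnc1, Unc5b, Nrp2, Ntn4 and Robo3. The first of them (126 and 144, chromosome 7, 45638776 to 45638925) is in a coding exon at -45172 bp from the Ntn5 5' end, and its nearest start is that of Mamstr. Those by Sema7a, Unc5b and Ntn4 were also nearest to the start of another gene (Cyp11a1, Slc29a3 and Snrpf). The Sema6a peak (98 and 144) lay at -1600 bp, and the Plxnc1 peak (89 and 138) in an intron 38965 bp from the 5' end. The Robo3 peak (74 and 135) was in a coding exon of Robo3 and also counted for Robo4.

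Peaks outside every annotated exon are shown for 4 genes, with motif matches in capitals, to set CpG-rich beside CpG-poor sites. Sequences are from GRCm38.p6 on the strand of the gene.
Unc5a, intron, chr13:54956156-54956305, plus strand: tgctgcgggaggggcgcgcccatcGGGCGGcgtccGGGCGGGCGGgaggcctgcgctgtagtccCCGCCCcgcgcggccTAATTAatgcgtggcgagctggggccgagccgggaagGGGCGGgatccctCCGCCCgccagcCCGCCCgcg
Sema3b, upstream, chr9:107612776-107612925, minus strand: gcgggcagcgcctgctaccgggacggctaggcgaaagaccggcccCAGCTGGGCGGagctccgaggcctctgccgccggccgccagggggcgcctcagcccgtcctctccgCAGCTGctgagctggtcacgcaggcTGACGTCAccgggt
Nrp2, upstream, chr1:62697096-62697245, plus strand: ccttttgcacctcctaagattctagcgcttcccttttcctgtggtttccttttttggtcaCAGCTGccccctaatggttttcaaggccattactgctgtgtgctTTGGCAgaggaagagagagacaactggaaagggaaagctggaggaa
Slit3, intron, chr11:35407756-35407905, plus strand: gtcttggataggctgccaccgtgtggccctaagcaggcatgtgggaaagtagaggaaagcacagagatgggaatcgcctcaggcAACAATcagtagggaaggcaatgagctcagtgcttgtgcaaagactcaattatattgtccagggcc
The Unc5a peak (96 and 140), 6819 bp into the gene, was 80% GC with 24 CpG and 7 matches to the SP and KLF motif GGGCGG. The Sema3b peak (118 and 135), at -3621 bp from the 5' end, held 17 CpG and matches to the CAGCTG E-box, the SP and KLF motif and the CREB motif. The Nrp2 peak (80 and 137), at -6115 bp, held 1 CpG and matches to that E-box and the NFI motif. The Slit3 peak (83 and 128), 286606 bp into the gene, held 2 CpG and a match to the SOX motif. Of all distal peaks, 5.57% held the SP and KLF motif and 0.307% the CREB motif.

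The replicate lists differed in their number of distal peaks. Counted in each list alone, the members had a median of 68 distal peaks in replicate 1 and 27 in replicate 2, against 22 and 11 over all genes. Robo1 had 660 and 96, Sema3a 278 and 40, and Plxna1 175 and 25, each close to 7 times as many in replicate 1. In 6 members the order was the opposite: Ntn4 (25 and 44), Plxnb1 (9 and 16), Ntn3 (13 and 19), Sema6c (12 and 15), Sema7a (16 and 19) and Sema3g (12 and 13). The ratio of replicate 1 to replicate 2 counts had a Spearman coefficient of -0.363 with the GC content of the gene's window over the 47 members, a description only. The shared counts given above need a peak in each library.

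Each of the 67 partner genes on a list of receptors, co-receptors and effectors had a shared promoter peak. Of 24 surface or secreted partners and 43 cytoplasmic ones, 24 and 43 had a shared promoter peak, again beside 68.9% of all genes. The cytoplasmic effectors had higher promoter values than the members, with medians of 109 and 144. The 3 highest in rank were Fyn, a kinase downstream of plexin-A2 and Dcc (130 and 149), Gsk3b, a kinase in semaphorin signalling (133 and 148), and the adaptor Gipc1 (125 and 149). Cdk5, a kinase acting downstream of Sema3a, had 139 and 147. The Slit-Robo GTPase-activating proteins Srgap1, Srgap2 and Srgap3 had 84 and 130, 131 and 148, and 90 and 135. Among surface partners, medians were 81 and 132. Neo1, the relative of Dcc, had 119 and 140, and Dscam, another netrin receptor, had 56 and 129 with 88 distal peaks, more than any member. The lowest were Cd72 (30 and 63), the immune receptor of Sema4d, and Met (22 and 90), a partner of plexin-B1. The ephrins and Eph receptors, the other large guidance family, had shared promoter peaks at 22 of 22 and a median of 19 distal peaks, the same median as the members, in shorter genes (28.4 kb).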

How the data were processed

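DNase-seq peaks and hotspots of 2 midbrain replicates were used. The authors called both per replicate on mm10, per the labels and file headers; aligner and caller were not given in the sources. The deposited peak signal is a whole number per 150 bp peak. Deposited hotspots carry a −log10 p or q value of at most 100. Read depth is unknown. Gene models were GENCODE M21 and sequences GRCm38.p6; all 51 start codons of members read ATG. Promoter sequences came from the RefSeq table, which held 38 of the 47 members, and bases in any annotated exon were left out. Genes were counted by identifier. Counting used pandas 2.3.3, pysam 0.24.0, numpy 2.4.6 and scipy 1.17.1 in Python 3.11.15, and the counting steps were tested on simulated data. Named genes were the 3 highest promoters of each family, members without a shared promoter peak, and members with extreme distal counts or several open starts. The 10 highest distal peaks and the 3 highest partners were also named, and further names were chosen after their values were seen. The members and lists were chosen with earlier results of these data known. With 1 group, no test was made; alternatives changed windows, starts, overlap and replicates.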

Additional observations from a re-analysis of the deposited data

How the results depend on the processing

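The number of members with a shared promoter peak, 44, stayed between 42 and 45 under 10 alternatives (narrower or wider windows, gene 5' ends or protein-coding starts alone, a stricter overlap, a peak in each replicate, the strongest replicate 1 peaks, hotspots, either replicate alone). The partner count was 66 or 67 of 67. The median of distal peaks per member, 19, was 14 with 20 kb flanks and 8 in gene bodies alone, where all genes had 3 and 1. It ranged from 27 to 68 with peaks of a single replicate, and the 1139 distinct peaks became 1692 to 5362. The high values, 68 and 5362, come from replicate 1 alone, whose list is longer. No paired analysis was possible because there is 1 group. Read depth is unknown, so an absent peak does not show closed chromatin, and peak values were not compared between replicates.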

Other observations

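The wider accessible regions around the promoters, called hotspots, also varied among members. In both replicates the width was taken at the strongest promoter peak of replicate 2, and the effect of this choice was not tested. The hotspot over that peak of Sema6a was 6690 bp wide in replicate 1 and 6278 bp in replicate 2, the widest of the members in both. That of Sema4c was 2586 and 3279 bp, and that of Plxnc1 2749 and 3744 bp. At Sema3g it was 286 and 376 bp. Of 44 members with a hotspot there in each replicate, 39 had the wider one in replicate 2, such as Sema5b (732 and 2742 bp), Plxnd1 (587 and 1970 bp) and Slit2 (938 and 3033 bp). No share over all genes is given beside this count, so it does not set the members apart. Sema6b (2342 and 775 bp) and Slit3 (1723 and 755 bp) were among the 5 with the wider one in replicate 1.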
